A study of Mus musculus with 8 samples.

Results

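The epidermal growth factor receptor (EGFR) family was described here in quiescent neural stem cells (qNSCs) cultured with bafilomycin A (BafA), an inhibitor of the vacuolar-type H+-ATPase that acidifies lysosomes. The members were the array probes whose platform gene symbol was one of 10 names: the receptor genes Egfr, Erbb2 and Erbb3, the ligand genes Hbegf, Tgfa, Btc, Ereg, Egf and Nrg1, and the docking protein gene Gab1. Each gene was measured by 1 probe, so that the family made up 10 of the 16390 gene symbols and 10 of the 23473 gene probes on the array. RNA had been hybridised to 8 single-colour oligonucleotide arrays, 2 in each of 4 groups. All groups came from an NSC line of embryonic ventral telencephalon of ICR mice that had been held for 3 days in quiescence medium, which lacks EGF and contains BMP4, and then received fresh medium. The groups were qNSCs with 20 nM BafA for 4 h, control qNSCs of 4 h, qNSCs with 20 nM BafA for 24 h and control qNSCs of 24 h. The cells were 1 line in culture, and no source used here says whether the duplicate arrays came from separate cultures, so that the p-values measure the spread between arrays, which may be technical.

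Ligands of this family are made as membrane-bound precursors, shed from the cell surface and bound by the receptors, which then pair and phosphorylate each other. Docking proteins such as Gab1 gather on the active receptors and pass the signal to the Ras-ERK and phosphoinositide 3-kinase cascades, while endocytosis and lysosomal degradation remove the receptors. In neural stem cells, EGFR is known for driving the entry into proliferation, and BMP for holding the cells in quiescence.

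Values are given on 2 scales. The normalized signal is the spot signal corrected by normexp with an offset of 50 and then brought to a median of 25 on every array. Its log2 fold changes were tested with limma over 20473 probes. The offset compresses changes of dim probes. The deposited value is the authors' own signal, scaled to the same median after the blank level was subtracted, and it was 0.7 or 0.8 for the dimmest probe listed on each array. On that scale Egfr, Hbegf and Gab1 lay above the array median on all 8 arrays, and the other 7 members lay below it on all 8. Signals of different probes are not compared.

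Promoters of 3 members with different patterns are shown so that their upstream sequences can be set beside the values. RefSeq windows (GRCm38.p6) were at hand for 6 of the 10 members. The 250 bases before a RefSeq transcript start are printed 5′ to 3′ on the gene's strand. Shown are Gab1, lower with BafA at 24 h, Tgfa, lower at 24 h than at 4 h, and Egfr. These windows lie on the minus strand at chr8:80880520-80880769, on the plus strand at chr6:86194972-86195221 and on the plus strand at chr11:16751953-16752202. The Tgfa gene begins at 86195038, inside its window. That window therefore precedes a later transcript start, and both of its GC boxes lie within the gene. Capitals mark the GC box, GGGCGG on either strand, a site of Sp1-family factors.
Gab1: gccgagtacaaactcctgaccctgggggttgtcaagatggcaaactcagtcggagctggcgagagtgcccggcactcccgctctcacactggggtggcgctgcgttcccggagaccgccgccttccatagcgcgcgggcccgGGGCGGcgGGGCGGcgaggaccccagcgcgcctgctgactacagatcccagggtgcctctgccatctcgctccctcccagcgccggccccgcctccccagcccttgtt
Tgfa: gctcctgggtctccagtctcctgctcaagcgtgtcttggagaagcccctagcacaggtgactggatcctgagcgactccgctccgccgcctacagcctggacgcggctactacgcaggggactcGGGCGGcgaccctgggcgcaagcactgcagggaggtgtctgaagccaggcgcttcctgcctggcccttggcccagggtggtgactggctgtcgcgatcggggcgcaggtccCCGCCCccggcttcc
Egfr: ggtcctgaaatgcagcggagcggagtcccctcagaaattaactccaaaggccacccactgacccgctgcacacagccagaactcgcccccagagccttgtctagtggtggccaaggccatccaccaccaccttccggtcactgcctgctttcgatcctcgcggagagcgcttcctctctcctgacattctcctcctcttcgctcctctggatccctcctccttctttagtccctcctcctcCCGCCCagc

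The GC box was found 2 times in the Gab1 window, 2 times in the Tgfa window and once in the Egfr window, and in none of the Erbb2, Btc and Egf windows. Of 32851 mouse windows of this length, 32.7% held it. The AP-1 site (TGACTCA, in 4.46% of all windows), the cAMP response element (TGACGTCA, in 1.55%) and the E-box of the lysosomal gene network (TCACGTGA, in 0.785%), each searched on both strands and none containing another, were in no window of the 6 members. GC made up 70.8% of the bases of the Gab1 window, 69.2% of those of the Tgfa window and 60.8% of those of the Egfr window. A match of letters is not a measured binding site. Ereg and Btc lie on the same stretch of chromosome 5, at 91074617 to 91093649 and 91357261 to 91402994.

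The data were first read for the response to BafA. At 4 h, 1 member rose and 0 fell among the 10, where 1.13% of all probes tested were higher and 1.09% lower (adjusted p under 0.05). At 24 h, 2 members, Hbegf and Ereg, rose and 1, Gab1, fell, where 14.6% of all probes were higher and 12.8% lower. The 3 of 10 members that passed at 24 h were close to the share of all probes. The median log2 fold change of the 10 members was 0.03 at 4 h and 0.01 at 24 h, beside 0.01 and 0.02 over all probes. The effect of BafA differed between the times for the same 3 genes, a difference that passed for 14.7% of all probes.

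**Figure D1:**
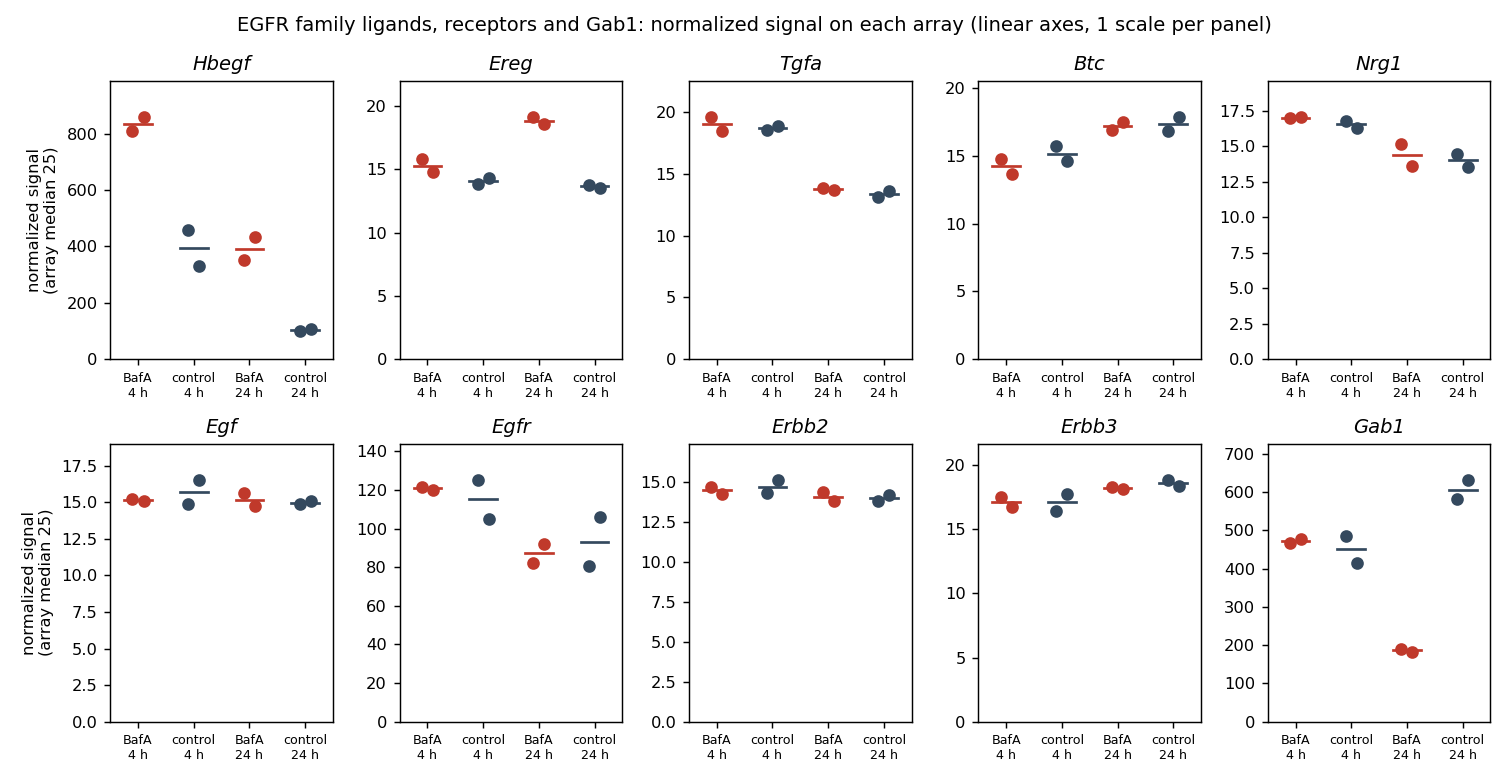
Normalized signal (linear axes from 0, 1 scale per panel, array median 25) of the 10 members on each of the 8 arrays, BafA in red and control in blue-grey, with the mean of each pair as a line. Hbegf stands higher with BafA at both times and lower at 24 h than at 4 h, Gab1 is low on the 2 BafA arrays of 24 h, and Tgfa is lower at 24 h with either treatment.

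Hbegf encodes heparin-binding EGF-like growth factor, an EGFR ligand that also binds ErbB4. At 4 h its normalized signal was 809.0 and 857.7 on the BafA arrays, against 458.8 and 331.4 on the control arrays. At 24 h it was 351.1 and 432.0 on the BafA arrays, against 101.2 and 107.6 on the control arrays. Every BafA array thus lay above both control arrays of its time, while the BafA arrays of 24 h overlapped the control arrays of 4 h. The log2 fold change was 1.10 after 4 h (SE 0.18, adjusted p = 0.00046), while after 24 h it was 1.90 (SE 0.18, adjusted p = 6.84e-09). The deposited means, 1714 against 792.1 at 4 h and 779.6 against 186.0 at 24 h, gave ratios of 2.16 and 4.19. With the signal around each spot subtracted first, the log2 fold change of Hbegf at 4 h turned to -1.08, and no member passed the threshold in any comparison.

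The difference between the 2 effects of BafA on Hbegf was 0.80 on the log2 scale (SE 0.25, adjusted p = 0.0289). It was not past the threshold when the first control array of 4 h was left out (0.57, adjusted p = 0.238). Nor did it pass without BafA array 1 of 4 h (0.76, adjusted p = 0.075), without control array 1 of 24 h (0.76, adjusted p = 0.051) or without BafA array 2 of 24 h (0.66, adjusted p = 0.129). Within the 6 arrays of 1 scan setting it was 0.53 (adjusted p = 0.445), and without the trend of the variance on the signal it did not pass either (adjusted p = 0.0607).

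Ereg encodes epiregulin, a ligand of EGFR and ErbB4, and its probe was dim. At 24 h its normalized signal was 19.1 and 18.6 on the BafA arrays, against 13.8 and 13.5 on the control arrays. The deposited values, which are less compressed, were 12.4 and 12.2 with BafA and 2.4 and 1.5 in control, a 6.31-fold ratio of the means. The control values lie near the dimmest probe listed on each array (0.7 or 0.8), so that the size of this ratio is uncertain. The log2 fold change of the normalized signal was 0.47 (SE 0.05, adjusted p = 1.29e-07). At 4 h the deposited values were 5.0 and 4.3 with BafA and 2.3 and 2.4 in control. These pairs did not overlap either, nor on this scale did those of Btc at 4 h, which were lower with BafA. How many of all probes were separated in this way was not counted. The log2 fold change of the normalized signal of Ereg at 4 h, 0.11, did not pass (SE 0.05, adjusted p = 0.44). The effect at 24 h exceeded that at 4 h by 0.35 (SE 0.07, adjusted p = 0.00123).

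Gab1 encodes a docking protein that gathers Grb2, the phosphatase Shp2 and phosphoinositide 3-kinase at active receptors. At 24 h its normalized signal was 190.8 and 181.6 on the BafA arrays, against 581.2 and 631.5 on the control arrays. At 4 h it was 465.7 and 478.4 on the BafA arrays, against 485.0 and 415.2 on the control arrays. The pairs of 24 h lay far apart and those of 4 h overlapped. Gab1 fell with BafA at 24 h by 1.70 on the log2 scale (SE 0.16, adjusted p = 8.9e-09), and the deposited mean was 3.36-fold lower, at 358.6 against 1204. At 4 h the log2 fold change was 0.07 (SE 0.16, 95% interval -0.26 to 0.40, adjusted p = 0.992). The effects at the 2 times differed by -1.78 (SE 0.23, adjusted p = 3.34e-06).

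**Figure D2:**
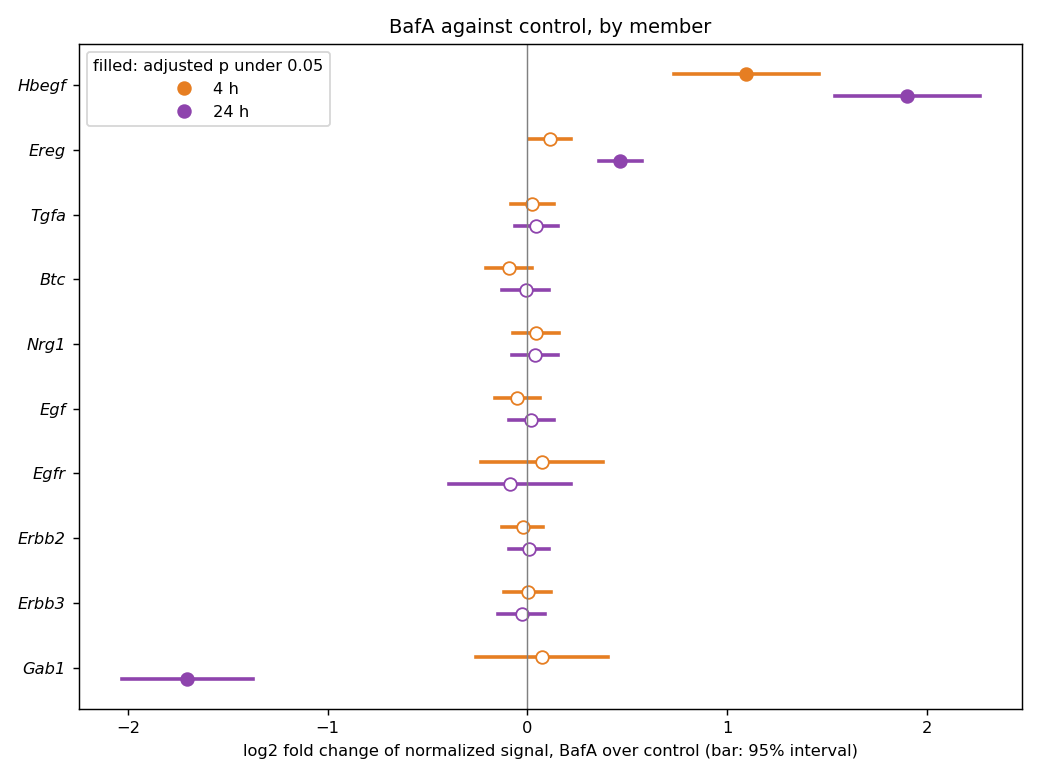
Log2 fold change of the normalized signal, BafA over control, with its 95% interval for each member at 4 h (orange) and 24 h (purple); filled points had an adjusted p under 0.05. The filled points are Hbegf at both times (1.10 and 1.90), Ereg at 24 h (0.47) and Gab1 at 24 h (-1.70).

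The receptors did not pass at either time. Egfr, the receptor of EGF, gave normalized signals of 121.5 and 120.2 with BafA and 125.2 and 105.2 in control at 4 h. At 24 h it gave 82.0 and 92.3 with BafA and 80.7 and 105.9 in control. Both pairs overlapped at both times. The log2 fold change was 0.07 after 4 h (95% interval -0.23 to 0.38, adjusted p = 0.99), while after 24 h it was -0.09 (95% interval -0.39 to 0.22, adjusted p = 0.759), so that a change of the transcript within these intervals would not have been seen. The array measures mRNA, and says nothing of the amount of EGFR protein or its phosphorylation.

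Erbb2 encodes the receptor that binds no ligand of its own and pairs with the others. Its probe was close to the blank level, with deposited values from 2.2 to 4.1 over the 8 arrays, and its log2 fold changes with BafA were -0.02 at 4 h and 0.01 at 24 h (adjusted p = 0.99 and 0.941). Erbb3, a neuregulin receptor with a weak kinase, had deposited values from 7.5 to 12.6 and log2 fold changes of 0.00 at 4 h and -0.03 at 24 h (adjusted p = 1.0 and 0.797). The offset narrows the intervals of such dim probes, so that no limit on their change is drawn from them.

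The other 4 ligands gave no difference past the threshold between BafA and control. Tgfa encodes transforming growth factor alpha, an EGFR ligand, and its deposited values at 4 h were 13.2 and 11.8 with BafA, against a mean of 11.9 in control, where both arrays lay between the BafA values or level with the lower. At 24 h they were 1.0 and 2.5 with BafA, against 1.1 and 1.6 in control. Treated and control arrays overlapped on this scale at both times, while the 2 times were far apart. The log2 fold changes with BafA were 0.03 at 4 h and 0.04 at 24 h (adjusted p = 0.99 and 0.629).

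Btc encodes betacellulin, which binds EGFR and ErbB4. Its deposited values at 4 h were 2.9 and 2.2 with BafA, against 6.1 and 3.0 in control, and at 24 h they were 7.7 and 10.1 with BafA, against 8.6 and 10.4 in control. The log2 fold changes were -0.09 and -0.01 (adjusted p = 0.701 and 0.943). Nrg1 encodes neuregulin 1, a ligand of ErbB3 and ErbB4. Its deposited values at 4 h were 7.7 and 9.0 with BafA, against 8.3 and 6.4 in control, and at 24 h they were 3.9 and 2.4 with BafA, against 3.8 and 1.6 in control. The log2 fold changes were 0.04 at both times (adjusted p = 0.957 and 0.713). Egf encodes the ligand that the quiescence medium lacks. Its deposited values ran from 3.8 to 7.0 over all arrays, with log2 fold changes of -0.05 at 4 h and 0.02 at 24 h (adjusted p = 0.934 and 0.867).

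The time trend was then read within each treatment, since it sets the level that BafA is measured against. In control qNSCs, 2 members rose and 3 fell at 24 h against 4 h, where 18.8% of all probes were higher and 14.2% lower. In BafA-treated qNSCs, 2 members rose and 5 fell, where 21.4% of all probes were higher and 15.9% lower. The median log2 fold change of the members was -0.14 in BafA-treated qNSCs and -0.07 in control qNSCs, beside 0.01 over all probes in either. Each trend shares its arrays with the comparisons above. No group was collected before the fresh medium was given, so that a trend cannot be told apart from a response to it.

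Hbegf fell over time with either treatment. The log2 fold change of 24 h against 4 h was -1.10 in BafA-treated qNSCs (SE 0.18, adjusted p = 1.88e-05) and -1.90 in control qNSCs (SE 0.18, adjusted p = 8.81e-09). Its higher level with BafA at 24 h was therefore measured against controls whose deposited mean, 186.0, was 4.26-fold below that of controls of 4 h, 792.1.

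Tgfa also fell over time with either treatment, by 0.47 on the log2 scale in BafA-treated qNSCs (SE 0.05, adjusted p = 1.08e-07) and by 0.49 in control qNSCs (SE 0.05, adjusted p = 9.7e-08). On the deposited scale its mean at 24 h was 7.14-fold lower with BafA and 8.81-fold lower in control than at 4 h. Its deposited values of 24 h were 1.0 to 2.5, near the dimmest probe listed on each array (0.7 or 0.8). The size of these ratios is therefore uncertain. Nrg1 fell by 0.24 in both (SE 0.06 each, adjusted p = 0.00106 with BafA and 0.00153 in control). Its deposited mean was 2.65-fold lower with BafA and 2.72-fold lower in control. The values of 24 h, 1.6 to 3.9, were low as well, which limits these ratios in the same way. Without the second BafA array of 24 h, the trend of Nrg1 in BafA-treated qNSCs did not pass (adjusted p = 0.0602).

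Btc rose over time, by 0.27 on the log2 scale in BafA-treated qNSCs (SE 0.06, adjusted p = 0.000359) and by 0.19 in control qNSCs (SE 0.06, adjusted p = 0.0103). The trend in control was lost without the second array of control qNSCs of 4 h (0.14, adjusted p = 0.139) or without that of 24 h (0.15, adjusted p = 0.101). It did not pass without a variance trend either (adjusted p = 0.0762). Ereg rose over time with BafA, by 0.30 (SE 0.05, adjusted p = 4.01e-05), and its control trend was -0.05 (SE 0.05, adjusted p = 0.543).

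Gab1 moved in opposite directions over time: its log2 fold change of 24 h against 4 h was -1.34 with BafA (SE 0.16, adjusted p = 2.82e-07) and 0.43 in control (SE 0.16, adjusted p = 0.0396). The rise in control was not past the threshold when any of 6 arrays was left out: a control array of 4 h (adjusted p = 0.0588 or 0.285), a BafA array of 4 h (0.0536 or 0.0538) or a control array of 24 h (0.0797 or 0.218). It did not pass on the 6 arrays of 1 scan setting (0.60, adjusted p = 0.113), and quantile normalization brought it to 0.14 (adjusted p = 0.364). Egfr fell over time with BafA by 0.47 (SE 0.15, adjusted p = 0.0129), a call that was lost without BafA array 1 of 4 h (adjusted p = 0.0525) and without BafA array 1 of 24 h (adjusted p = 0.111). The change in control was -0.31 (SE 0.15, adjusted p = 0.114). Leaving out 1 array, this change ranged from -0.51, without control array 2 of 24 h, to -0.115. On the 6 arrays of 1 scan setting it was 0.01. The trends of Erbb2, Erbb3 and Egf ran from -0.07 to 0.12 and did not pass (lowest adjusted p = 0.105, for Erbb3 in control). The trend of Erbb3 in control lay near the threshold. It passed on the deposited values (0.50, adjusted p = 0.0302), with an offset of 16 (0.24, adjusted p = 0.0451), with quantile normalization (0.13, adjusted p = 0.0182) and without control array 2 of 4 h (0.18, adjusted p = 0.0484), and its trend with BafA passed with quantile normalization only (0.11, adjusted p = 0.0405).

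**Figure D3:**
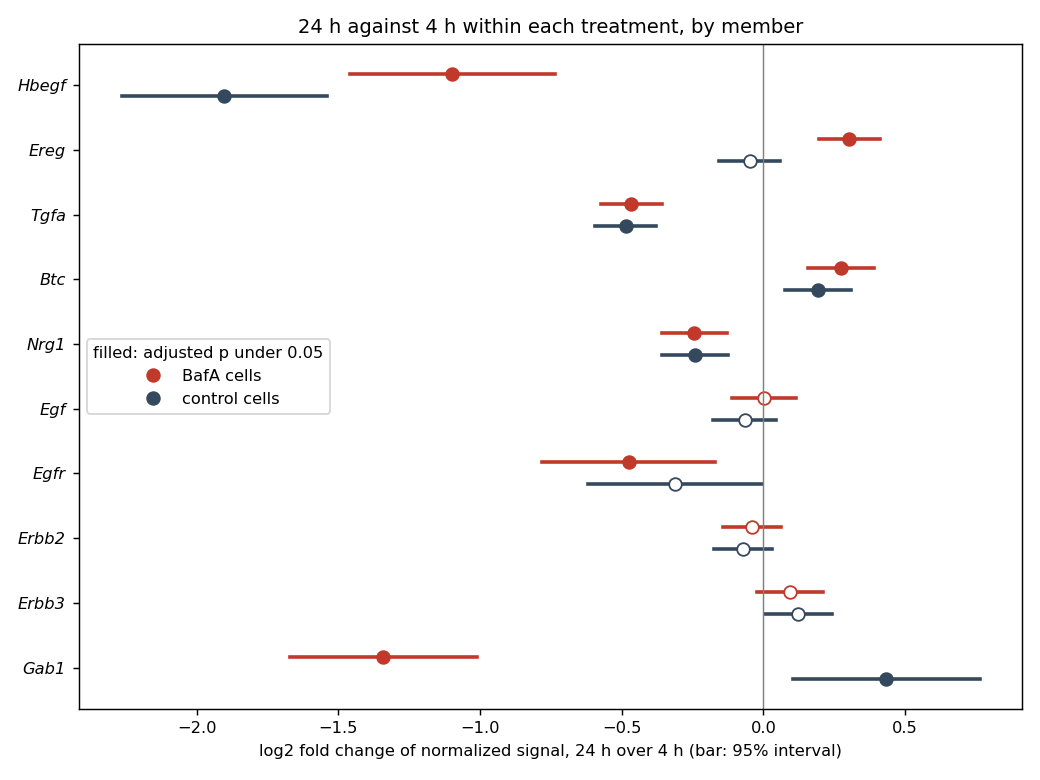
Log2 fold change of the normalized signal, 24 h over 4 h, with its 95% interval for each member in BafA-treated (red) and control (blue-grey) qNSCs; filled points had an adjusted p under 0.05. Hbegf, Tgfa and Nrg1 lie left of 0 in both treatments, Btc lies right of 0 in both, and Gab1 is at -1.34 with BafA and 0.43 in control.

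Other receptor and ligand genes of the family were read beside the members. Of 6 further names, 5 were analysed here and 4 had a value on all arrays. With BafA at 24 h, Nrg2, a neuregulin gene, fell by 0.29 (SE 0.06, adjusted p = 0.000185), with deposited values of 3.4 and 3.7 with BafA and 11.5 and 9.5 in control. Epgn, which encodes the EGFR ligand epigen, fell by 0.19 (SE 0.07, adjusted p = 0.0305), with deposited values of 10.8 and 8.7 with BafA and 15.2 and 14.8 in control. The call of Epgn was lost without BafA array 2 of 24 h (-0.13, adjusted p = 0.347) and without a variance trend (adjusted p = 0.126). Erbb4 and Nrg4 did not pass at either time, with log2 fold changes from -0.05 to 0.01. Nrg3 had a deposited value on 1 of the 8 arrays only, 1.2 on the first BafA array of 4 h, and was not tested.

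The steps around the receptor were read from gene lists. Of 11 tested genes of ligand shedding, 0 rose and 2 fell with BafA at 24 h: Rhbdf1, which encodes the iRhom1 partner of the sheddase ADAM17 (-0.47, adjusted p = 0.0269), and Rhbdl3, a rhomboid family gene (-0.24, adjusted p = 0.014). Beside the 12.8% of all probes that were lower, these 2 of 11 are no result about the list, and between 0 and 2 of its genes passed when 1 array was left out. Rhbdf1 was lost without BafA array 1 (adjusted p = 0.137) or control array 2 (adjusted p = 0.229) of 24 h, and Rhbdl3 without BafA array 1 (adjusted p = 0.0892) or 2 (adjusted p = 0.0974) of that time. None passed at 4 h. Over time, 2 of the 11 rose and 2 fell in control qNSCs (18.8% and 14.2% of all probes). With BafA, 2 rose and 4 fell (21.4% and 15.9% of all probes). Adam10 and Adam17, the main sheddases of EGFR ligands, were higher at 24 h than at 4 h with either treatment. Rhbdf1 and Rhbdl1 were lower with either, and Adam19 and Timp3 passed as lower with BafA only. Adam10 and Adam17 did not pass between BafA and control.

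Gab1 was counted with the members and left out of the list of adaptors. Of 34 tested adaptors and members of the cascade, 1 rose and 0 fell with BafA at 4 h (1.13% and 1.09% of all probes). At 24 h, 8 rose and 0 fell (14.6% and 12.8% of all probes). Over time, 7 of the 34 rose and 11 fell in control qNSCs (18.8% and 14.2% of all probes). With BafA, 9 rose and 7 fell over time (21.4% and 15.9% of all probes). Among the 8 that rose with BafA at 24 h, the largest changes were those of the phosphoinositide 3-kinase genes Pik3ca (0.66, adjusted p = 0.00118) and Pik3cb (0.54, adjusted p = 6.54e-05), the kinase gene Akt2 (0.49, adjusted p = 0.0176) and the exchange factor gene Vav3 (0.49, adjusted p = 3.35e-05). Akt2 and Vav3 rose over time with BafA and did not pass in control. Pik3ca averaged 111.0 at 4 h and 110.5 at 24 h with BafA, and fell from 105.2 to 69.9 in control. Pik3cb averaged 50.3 and 46.3 with BafA, and fell from 39.1 to 32.0 in control. Pik3cb was also the 1 that rose at 4 h (0.36, adjusted p = 0.032), a call lost in 6 of the 8 fits that left out 1 array. The list's median log2 fold change was 0.05 with 4 h and 0.07 with 24 h of BafA, and 5 to 10 genes passed at 24 h when 1 array was left out. The call of Akt2 was lost without either BafA array of 24 h (adjusted p = 0.0594 or 0.0533) and without control array 1 of 24 h (adjusted p = 0.248).

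Of 16 tested inhibitors that act on the receptors, 1 rose and 0 fell with BafA at 4 h (1.13% and 1.09% of all probes). At 24 h, 6 rose and 1 fell (14.6% and 12.8% of all probes). Ndfip1, an adaptor of ubiquitin ligases, rose with BafA at 24 h (0.82, adjusted p = 0.000151), as did Socs5, which encodes a suppressor of cytokine signaling that acts on EGFR (0.43, adjusted p = 4.62e-05). Over time, 2 of the 16 rose and 9 fell in control qNSCs (18.8% and 14.2% of all probes). With BafA, 2 rose and 4 fell over time (21.4% and 15.9% of all probes). Of the 6 that rose with BafA at 24 h, Errfi1, Socs4, Socs5 and Itch fell over time in control. Socs5 averaged 25.2 at 4 h and 25.7 at 24 h with BafA, and 22.0 and 19.1 in control. Ndfip1 rose over time with BafA only. Rnf41, which encodes a ubiquitin ligase of ErbB3, rose with BafA after 4 h (0.36, adjusted p = 0.0101) and again after 24 h (0.21, adjusted p = 0.0448). It also rose over time in control. Its call at 4 h, the only one of the list at that time, was lost without control array 1 (adjusted p = 0.185) or BafA array 2 (adjusted p = 0.187) of 4 h and without a variance trend (adjusted p = 0.0609). Its call at 24 h was lost without any of the 4 BafA arrays or control array 1 of 24 h, with adjusted p from 0.0719 to 0.153. Lrig3, of the leucine-rich repeat proteins that regulate ErbB receptors, fell at 24 h (-0.75, adjusted p = 6.84e-06). The list's median log2 fold change was 0.14 with 24 h of BafA, and with 1 array left out 0 to 4 genes passed at 4 h and 4 to 7 at 24 h.

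Of 27 tested genes of receptor endocytosis and sorting, 0 passed at 4 h. At 24 h, 6 rose with BafA and 1 fell. Among them were Snx2, a sorting nexin gene (0.83, adjusted p = 0.0009), Ap2a2, an adaptor subunit of clathrin coats (0.79, adjusted p = 0.000616), and Tsg101, a subunit of the complex that sorts ubiquitinated receptors to the lysosome (0.57, adjusted p = 0.018). Anxa1, which encodes an annexin that EGFR phosphorylates, fell (-0.71, adjusted p = 0.00207). Tsg101 did not pass without BafA array 2 (adjusted p = 0.321) or control array 1 (adjusted p = 0.0725) of 24 h, nor Anxa1 without BafA array 1 (adjusted p = 0.0628) or control array 2 (adjusted p = 0.0672) of 24 h. The share of this list that rose is to be read against the 14.6% of all probes higher with BafA at 24 h. The same holds for the adaptors and the inhibitors. Of all probes, 12.8% were lower at 24 h, and 1.13% were higher and 1.09% lower at 4 h.

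The list of genes known to be induced by ERK signaling had 20 tested members, among them Ereg and Hbegf. It had been drawn up with results of these samples known, so that its direction is not independent evidence. Without Ereg and Hbegf, 7 of 18 rose and 0 fell with BafA at 4 h (1.13% and 1.09% of all probes), with a median log2 fold change of 0.22. At 24 h, 16 of 18 rose and 0 fell (14.6% and 12.8% of all probes), with a median of 0.69. Dusp6, an ERK phosphatase gene, averaged 76.9 ± 0.929 in normalized signal with BafA and 18.1 ± 0.782 in control at 4 h, and 385.2 ± 19.6 with BafA and 26.0 ± 3.16 in control at 24 h (SD, n = 2 each). It rose by 2.09 on the log2 scale after 4 h (adjusted p = 1.46e-11), while after 24 h the rise was 3.89 (adjusted p = 8.29e-18). Egr1, an immediate-early transcription factor gene, rose by 1.92 after 4 h (adjusted p = 1.75e-11), and after 24 h by 1.91 (adjusted p = 9.89e-13). Spry1, an inhibitor of receptor tyrosine kinase signaling, rose at 24 h by 2.11 (adjusted p = 2.02e-17), and its log2 fold change at 4 h was 0.18 (adjusted p = 0.211), which passed on the deposited values (1.03, adjusted p = 0.00734). Ier3, an early response gene, rose at 24 h by 2.27 (adjusted p = 5.48e-08).

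**Figure D4:**
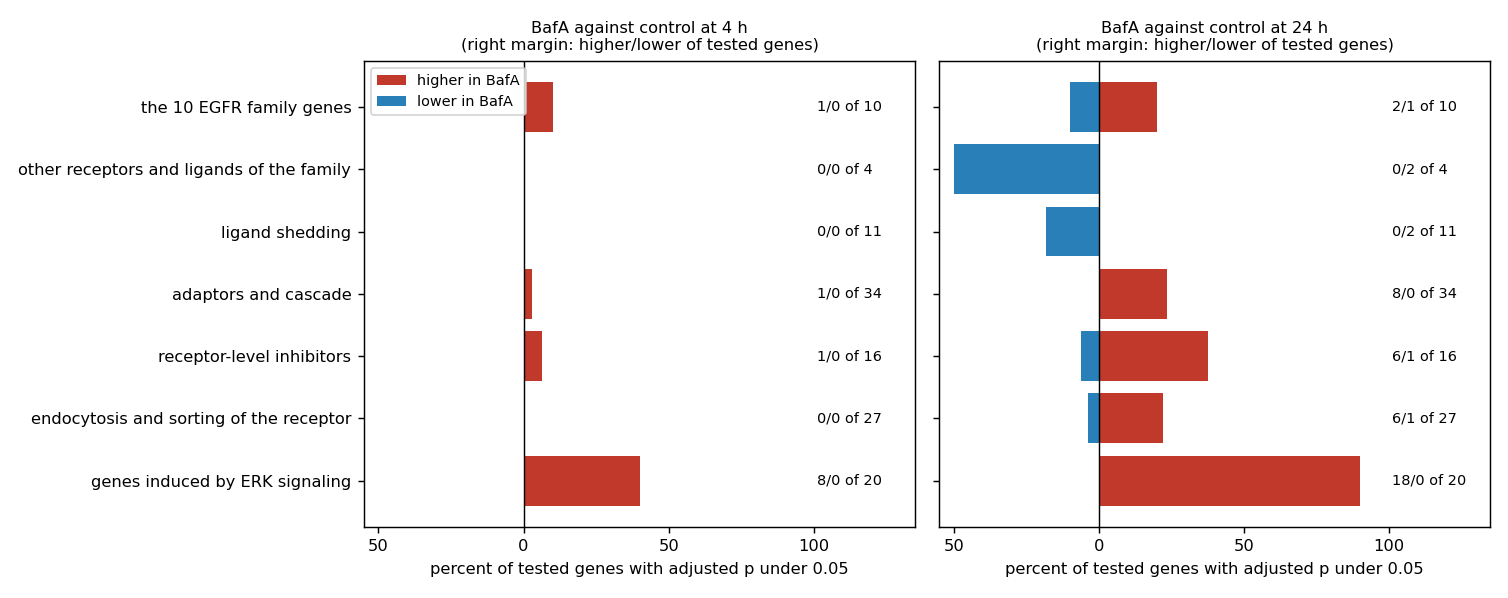
Percent of the tested genes of each list with an adjusted p under 0.05 for BafA against control at 4 h (left) and 24 h (right), higher with BafA in red to the right of 0 and lower in blue to the left, with the counts in the right margin. At 24 h 18 of 20 genes induced by ERK signaling were higher, among them the members Hbegf and Ereg. Of adaptors and members of the cascade, Gab1 not among them, 8 of 34 were higher. Both shares are to be read beside the 14.6% of all probes that were higher. The ERK list was drawn up with results of these samples known.

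The genes whose pattern was most like that of a responding member were taken by Pearson's r over the 8 arrays among 1655 probes with a gene symbol whose group means spanned at least 1 on the log2 scale. The arrays and the 4 groups are shared by all of them, so that r is a description. Those nearest to Hbegf were Ddi2 (r = 0.991), Socs2 (0.99) and Eps8 (0.987), which encodes an EGFR kinase substrate. Eps8 averaged 176.0 with BafA and 118.1 in control at 4 h, and 111.3 with BafA and 45.6 in control at 24 h. Those nearest to Ereg were Slc25a25 (0.993), Abtb2 (0.981) and Btbd11 (0.978). The dim probe of Ereg itself spanned 0.47 on the log2 scale, so that these r rest mainly on its 2 BafA arrays of 24 h. Those nearest to Gab1 were Gpr37l1 (0.991), Oat (0.991) and Stom (0.99). Stom, which encodes the membrane protein stomatin, averaged 104.0 with BafA and 500.2 in control at 24 h, and 308.5 with BafA and 335.4 in control at 4 h.

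Facts of the whole series that touch these results are as follows. Arrays of the same group correlated at 0.995 to 0.9977 over the probes tested, and arrays of different groups at 0.9512 to 0.9947. All 9 neural stem cell markers on the array lay above the array median on every array (Sox2 was not analysed here). The summed deposited values of 8 astrocyte markers, which qNSCs also express, were 11300 to 11900 with BafA and 26600 to 30700 in control at 24 h. At 4 h they were 18700 to 19800 with BafA and 19500 to 20600 in control. This sum moved in the same way as Gab1, and its part in the result for Gab1 was not tested. Of 8 neuronal markers 1, Tubb3, lay above the median on all arrays, and their sum was 144.0 to 152.0 with BafA and 529.0 to 634.0 in control at 24 h. The sum of 8 oligodendrocyte lineage markers was 5050 to 5590 with BafA and 3960 to 4640 in control at 24 h. Microglial and endothelial, mural or fibroblast markers had 1 of 10 above the median each, Csf1r and Pdgfrb. In RNA from whole cultures, fewer cells of a type and less RNA per cell cannot be told apart.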

How the data were processed

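NSCs were collected after 4 h or 24 h in quiescence medium with or without BafA. RNA was labelled with Cy5 and hybridised to 3D-Gene arrays (Toray). The authors deposited the scanner output, linear intensities of each spot and of the area around it, not normalized, and 1 table of signal values, scaled by the median of each array. The rest of the table's processing was found from the values: each was the spot signal minus the trimmed mean of 2736 blank spots, and was left empty where the spot was under 2 SD of the blanks above their mean. The scanner headers give gain slopes that were alike on 6 arrays and differed on control array 1 of either time, read here as 2 scan settings. Genes were named through the platform annotation, updated by synonyms: 16631 probes had 1 symbol, 0 had several and 6842 had none.

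Spot intensities were corrected with normexp (offset 50) in limma 3.58.1 (R 4.3.3), scaled to a median of 25 and taken to log2. The 20473 probes with a deposited value on all 8 arrays entered 1 fit with a mean for each group and moderated variances that follow the mean signal (eBayes with trend, 4 residual and 19.3 prior degrees of freedom). P-values were adjusted by Benjamini-Hochberg over these probes, and 0.05 was the threshold. The fit was tested on simulated data. With 2 arrays a group, the smallest two-sided p of an exact permutation test is 0.33, so none is printed. The number of arrays limits the precision. The members and lists were chosen with earlier results of these data known. The genes named in each list were up to 4 with the largest change among those that passed with BafA at 4 h or 24 h. For ligand shedding, those that passed over time were named as well. For the inhibitors, so were those that rose with BafA at 24 h and fell over time in control. The alternatives were another offset, local background, quantile normalization, the deposited values, no trend, other filters, blocks by replicate number and by scan setting, the 6 arrays of 1 scan setting, leaving out each array, and the methods' t-test and 2-fold rule. Tables were handled with Python 3.11.15, pandas and SciPy.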

Additional observations from a re-analysis of the deposited data

Results flagged for a closer look

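The effect of BafA on 3 members differed between the times by limma's test of the difference itself. For Gab1 the effect at 24 h minus that at 4 h was -1.78 on the log2 scale (adjusted p = 3.34e-06), for Hbegf it was 0.80 (adjusted p = 0.0289) and for Ereg it was 0.35 (adjusted p = 0.00123). Leaving out 1 array at a time, the differences of Gab1 and Ereg passed in all 8 fits, and that of Hbegf passed in 4 of 8. Controls of 24 h and of 4 h differed for Hbegf as well, by -1.90, so that its 2 effects were measured against different control levels.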

How the results depend on the processing

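Over the other settings, leaving out each array included, the 19 member results past the threshold were recomputed 333 times. They kept their direction and their side of the threshold in 294 of these, and reversed in 4, all with the local background subtracted first. Each member had 1 probe, so that no other probe could be tried.

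Subtracting the signal around each spot left 0 members called in every comparison, and 0, 187, 4, 8 and 242 probes of all genes at 4 h, at 24 h, for the difference of effects, over time in control and over time with BafA. With the spot signal alone, the setting chosen for the results above, these were 456, 5595, 3006, 6765 and 7637. The area around the Hbegf spot read 2433 and 3763 on the BafA arrays of 4 h, against 1404 and 1056 in control, beside spot signals of 3161 and 3576, against 1911 and 1323. Under this setting the log2 fold changes of Hbegf turned to -1.08 at 4 h and 0.31 over time with BafA, that of Gab1 over time in control to -0.37 and that of Btc over time with BafA to -0.05. Of results not past the threshold, Erbb2 turned to 0.02 at 4 h, -0.12 at 24 h and 0.055 over time in control, Nrg1 to -0.017 at 4 h and -0.078 at 24 h, Egfr to 0.13 at 24 h, Tgfa to -0.074 at 24 h, Egf to -0.02 at 24 h and -0.047 over time with BafA, and Ereg to 0.041 over time in control.

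A filter on bright probes tested fewer members and called 2 over time in control and 3 with BafA. Without a trend, 132 probes of all genes passed at 4 h, and the difference of effects of Hbegf and the control trend of Btc did not pass. Quantile normalization brought Egfr over time in control past the threshold (-0.41, adjusted p = 0.0399). The methods' t-test called 2 members at 4 h unadjusted, and after Benjamini-Hochberg 0 at 4 h, 0 at 24 h and 3 over time with BafA. The unadjusted t-test at 24 h and the 2-fold rule stayed within 1.5 times the limma counts. Values not past the threshold changed sign. For Erbb3 at 4 h they were -0.002 with an offset of 16 and with quantile normalization, -0.007 on the deposited values, -0.019 with scan setting as a block and -0.056 on the 6 arrays of 1 scan setting. For Erbb2 at 24 h they were -0.006, -0.008, -0.15, -0.022 and -0.011 in the same order. Egf at 24 h was -0.00033 on the deposited values and -0.023 with scan setting as a block. Egfr over time in control, -0.31 with all arrays, was 0.01 on the 6 arrays.

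Leaving out 1 array, the members called were 1 at 4 h, 3 at 24 h, 2 to 3 for the difference of effects, 4 to 5 over time in control and 6 to 7 over time with BafA. Sign changes were all in results not past the threshold. At 4 h the ranges were -0.051 to 0.20 for Egfr, -0.064 to 0.016 for Erbb2, -0.056 to 0.058 for Erbb3, -0.017 to 0.067 for Tgfa, -0.12 to 0.025 for Egf and -0.039 to 0.18 for Gab1. At 24 h they were -0.28 to 0.11 for Egfr, -0.02 to 0.036 for Erbb2, -0.052 to 0.034 for Btc, -0.021 to 0.059 for Egf and -0.038 to 0.11 for Nrg1. Over time Egf ranged from -0.14 to 0.009 in control and from -0.037 to 0.042 with BafA. Calls lost in this way are named in the report. The cause of these changes was not tested.

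With the replicate number as a block, 1 member was called at 4 h, 3 at 24 h, 3 for the difference of effects, 5 over time in control and 7 with BafA, and 568 probes of all genes passed at 4 h. Deviations of same-numbered arrays correlated at -0.223 between BafA and control of 4 h and at 0.0495 between those of 24 h, at 0.316 between 24 h and 4 h with BafA and at 0.285 between these times in control. No label ties a number to a culture or day, and not every pair was over 0.1, so that the numbers were not taken to pair the arrays. With the numbers crossed at 4 h, a choice made after the data were seen, 1 member and 404 probes passed.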
